A study of Yucca flaccida with 12 samples.

Results

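The centre of variegated leaves was compared with the centre of unvariegated leaves in the Yucca flaccida cultivar 'Golden Sword', an ornamental monocot. The comparison used 6 of the 12 libraries of the study, chosen by their titles: 3 from variegated centres (VC) and 3 from unvariegated centres (UC). Both groups carry the same genotype label, were propagated and kept in vitro without treatment, and were sampled from the second youngest leaf of a plant. They differ in the label for phenotype alone. The other 6 libraries came from the leaf edge of the same kinds of plant, 3 variegated (VE) and 3 unvariegated (UE), and serve here as a second zone with no library in common. Whether replicates are separate plants is not stated in the labels. P-values therefore reflect the spread among these samples only, and that spread may be technical. The titles also do not say whether centre and edge libraries came from the same leaves or plants. The main fit did not pair them, so the edge may not be independent of the centre.

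Leaf variegation is the presence of differently coloured sectors in a single blade, and in many plants the pale sectors hold plastids with little chlorophyll. Most chloroplast proteins are encoded in the nucleus, and signals from the plastid are known to change the transcription of those nuclear genes. In horticulture 'Golden Sword' is described as having a yellow centre and green margins, but the labels do not record the colour of the sampled zones. The gene identifiers are numbers of transcript clusters from an assembly, and the files do not pair them with gene names. Photosynthesis, pigment and plastid genes could therefore not be picked out, the leaf tissue could not be checked against marker genes, and genes are described by level, length, direction and behaviour in the second zone. A lower level of a transcript in these whole-zone samples may reflect fewer cells of a type or less RNA per cell, which cannot be told apart.

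Total estimated counts lay between 14509694 and 18816935 in VC and between 13139086 and 20306020 in UC, and between 99996 and 117899 genes were detected with at least 1 count in VC, against 102244 to 110461 in UC. Neither measure differed between the groups (two-sided exact permutation p = 1 for both, 3 against 3, where 0.1 is the smallest p possible). Within groups, log2 CPM (the count scaled to library size) of the 13621 genes averaging 10 CPM or more over the centre libraries correlated across genes at 0.881 to 0.953 in VC and at 0.908 to 0.946 in UC. The lowest value in VC was between VC1 and VC3. Between the groups the correlations ran from 0.761 to 0.892, and VC3 was the VC library closest to each UC library. Genes are not independent replicates, and these correlations describe the libraries only.

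Variegated centres differed from unvariegated centres in 3019 of 59225 genes tested, which is 5.10% (edgeR's quasi-likelihood test, Benjamini-Hochberg adjusted p below 0.05, all 12 libraries in a single fit). Genes that passed are termed called. Of these, 1582 were higher in VC (2.67% of genes tested) and 1437 were lower (2.43%), with median log2 fold changes of 1.19 and -1.39 against a median of -0.04 over all genes tested. In 3018 of the 3019 genes the 3 VC libraries lay wholly above or wholly below the 3 UC libraries. The same separation without regard to the test was seen in 27.2% of all genes tested, 13.0% with VC above and 14.2% with VC below. Most changes were moderate. Among genes higher in VC, 603 were below 1 on the log2 scale, 757 between 1 and 3, and 222 over 3, while among genes lower in VC the counts were 350, 918 and 169. Fitted changes over 3 were of rarer transcripts than those below 1. The median level of genes higher by over 3 was 2.99 CPM, and that of genes lower by over 3 was 1.36 CPM. For higher and lower genes with changes below 1 these medians were 29.1 and 22.2 CPM. Of the 222 genes 55 averaged 10 CPM or more, and of the 169 genes 20, against 13621 of all 59225 genes tested. By this measure the genes higher by over 3 were not rarer than genes at large. In 78 of the 222 the UC libraries together held at most 3 counts, and in 54 of the 169 the VC libraries did. Of these, 58 and 21 had no count there. The size of their fitted fold change depends on the prior count and is not a measurement of the ratio. For the others the few counts leave the ratio imprecise.

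**Figure D1:**
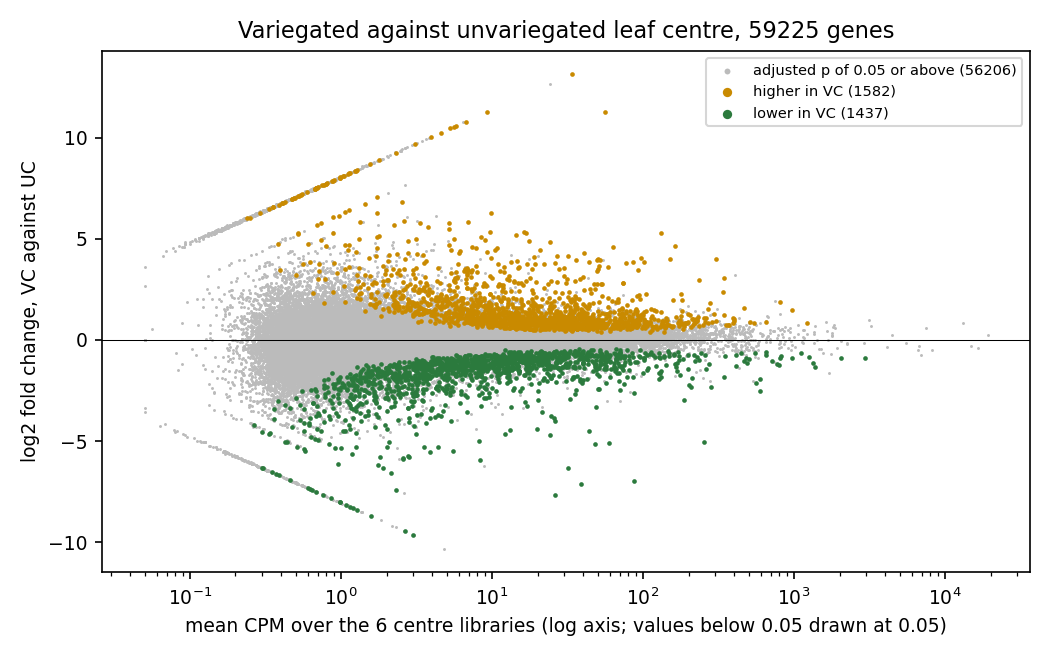
Log2 fold change of VC against UC (y axis) by mean CPM over the 6 centre libraries (x axis, log scale) for 59225 genes, with 1582 called higher in orange and 1437 called lower in green. The straight diagonal lines at the left are genes with no counts in one of the groups.

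How many genes passed depended on single libraries, and VC3 acted in the opposite direction to the other 5 centre libraries. Without VC1 908 genes passed (448 higher, 460 lower), and without VC2 700 passed (363 higher, 337 lower). Without VC3 the number was 4609 (2589 higher, 2020 lower). Without UC1, UC2 or UC3 it was 1380, 1153 or 1624, with 677, 529 and 862 higher and 703, 624 and 762 lower in this order. With the 6 centre libraries alone in the fit 818 genes passed, 439 higher and 379 lower, of which 754 were among the 3019.

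The per-library levels show where VC3 stood. Relative to the mean of UC, the 1582 genes higher in VC had a median log2 level of 1.41 in VC1, 1.21 in VC2 and 0.86 in VC3. The 1437 genes lower in VC had a median of -1.51 in VC1, -1.42 in VC2 and -1.14 in VC3. VC3 was thus the least shifted of the VC libraries for both sets. Gene by gene, VC3 was the lowest VC library in 80.7% of the genes called higher and the highest in 63.3% of those called lower, against 34.0% and 38.3% of all genes tested. VC1 was the highest VC library in 67.9% of the genes called higher and the lowest in 56.4% of those called lower, against 35.9% and 39.6% of all genes tested. The median SD of log2 CPM of genes called higher was 0.32 in VC and 0.23 in UC, and of genes called lower 0.32 in VC and 0.24 in UC. Over all genes tested it was 0.38 in VC and 0.40 in UC, and over those averaging 10 CPM or more it was 0.22 in VC and 0.19 in UC, so VC was also the more variable group among abundant genes as a whole. These sets were chosen in the same libraries, so the values describe the calls and do not test them.

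The called genes carried a sizeable part of the RNA. Those higher in VC held 9.07%, 8.57% and 7.08% of the counts in VC1, VC2 and VC3, against 3.97%, 3.85% and 3.96% in UC1, UC2 and UC3. Those lower in VC held 2.70%, 3.23% and 4.04% in VC1, VC2 and VC3, against 7.54%, 7.33% and 7.75% in UC1, UC2 and UC3. In the edge libraries, which had no part in choosing these genes by fold change, the first set held 6.21% ± 0.464 in VE and 3.98% ± 0.125 in UE (SD, n = 3 each). The second set held 3.80% ± 0.514 in VE and 7.59% ± 0.421 in UE (SD, n = 3 each). The UE shares were close to those of UC, and the 3 VE libraries lay on the VC side of all 3 UE libraries for both sets.

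**Figure D2:**
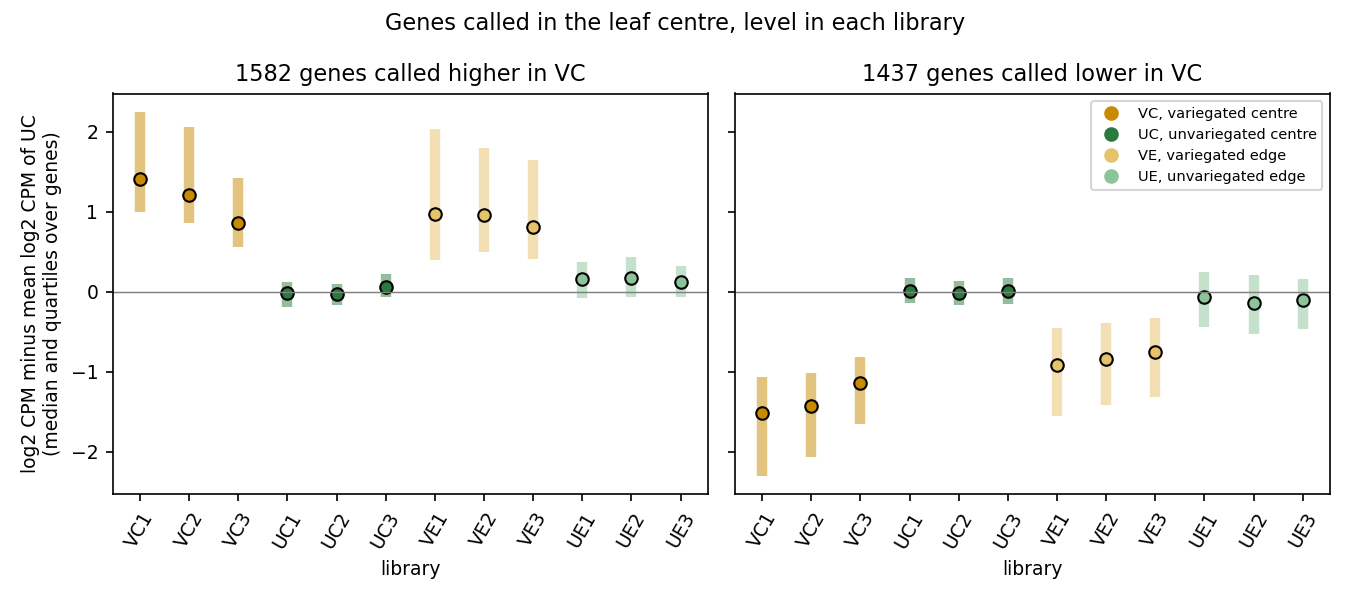
Log2 CPM minus the mean log2 CPM of UC (y axis; points are medians and bars the quartiles over genes) in each of the 12 libraries (x axis) for genes called higher in VC (left, 1582 genes) and lower in VC (right, 1437 genes). VC3 has medians of 0.86 and -1.14, nearer to 0 than VC1 and VC2, and the VE libraries lie between VC and UC for the genes called lower.

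Abundant genes were called more often. Of genes with a mean below 1 CPM over the 6 centre libraries, 62 were higher and 91 lower among 16805. Between 1 and 10 CPM, 524 were higher and 721 lower among 28799. Between 10 and 100 CPM, 877 were higher and 545 lower among 12346, and over 100 CPM 119 were higher and 80 lower among 1275. The share called was 0.910%, 4.32%, 11.5% and 15.6% in these classes, and the median log2 fold change of all their genes was -0.24, -0.05, 0.09 and 0.20. Lower calls were thus the majority below 10 CPM and higher calls above it, but this order depended on gene length. Among genes over 1000 bases higher calls were the majority in every class of level (33, 226, 493 and 73 higher, 16, 196, 271 and 36 lower), and among genes under 300 bases lower calls were (9, 57, 34 and 2 higher, 36, 218, 83 and 6 lower). The order turned only from 300 to 1000 bases, with 20, 241, 350 and 44 higher and 39, 307, 191 and 38 lower. At the edge higher calls were the majority in all classes of level, with 137, 718, 885 and 230 higher and 79, 505, 506 and 60 lower in VE than in UE. Genes outside the largest assembly group, which is named by the first number of the identifier, were called in 2.67% of 8345 cases, against 5.50% of 50880 genes inside it. These groups were not matched by level, and the share called rose with level.

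Short genes behaved differently from long ones, and this went with a property of the UC libraries. Under 300 bases of effective length (the length left for a fragment to start in), 102 genes were higher and 343 lower in VC among 9140 tested, and the median log2 fold change of all short genes was -0.32. From 300 to 1000 bases 655 were higher and 575 lower, and over 1000 bases 825 were higher and 519 lower. Effective lengths estimated from the ratio of count to FPKM were longer by a median of 24.9, 22.6 and 9.47 bases in UC1, UC2 and UC3, whereas all other libraries lay between -1.98 and 3.31 bases of the edge median. Genes under 300 bases held 5.16% ± 0.169 of the counts in VC and 6.14% ± 0.462 in UC (SD, n = 3 each; two-sided exact permutation p = 0.1, the smallest possible; adjusted p = 0.5 over 5 library measures). When the trend of each library with gene length was removed, the short genes called numbered 193 higher and 160 lower, so the direction of their majority turned. This step takes out any shift that follows length, whatever its source, so the turn says nothing of that source. The counts of 102 and 343 also moved with other settings, with lower calls in the majority each time. Without VC1, VC2, UC1, UC2 and UC3 there were 39, 31, 51, 42 and 66 higher and 102, 79, 156, 131 and 194 lower, and without VC3 159 higher and 416 lower. DESeq2 gave 250 higher and 634 lower, limma on log2 FPKM 274 and 257 higher and 535 and 445 lower with pseudocounts of 1 and 0.1, and the 6 centre libraries alone 34 higher and 88 lower. With the length trend removed the total stood at 3013, with 1612 higher and 1401 lower, and 2545 genes in common with the 3019. The part of this length difference in single short genes was not tested.

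**Figure D3:**
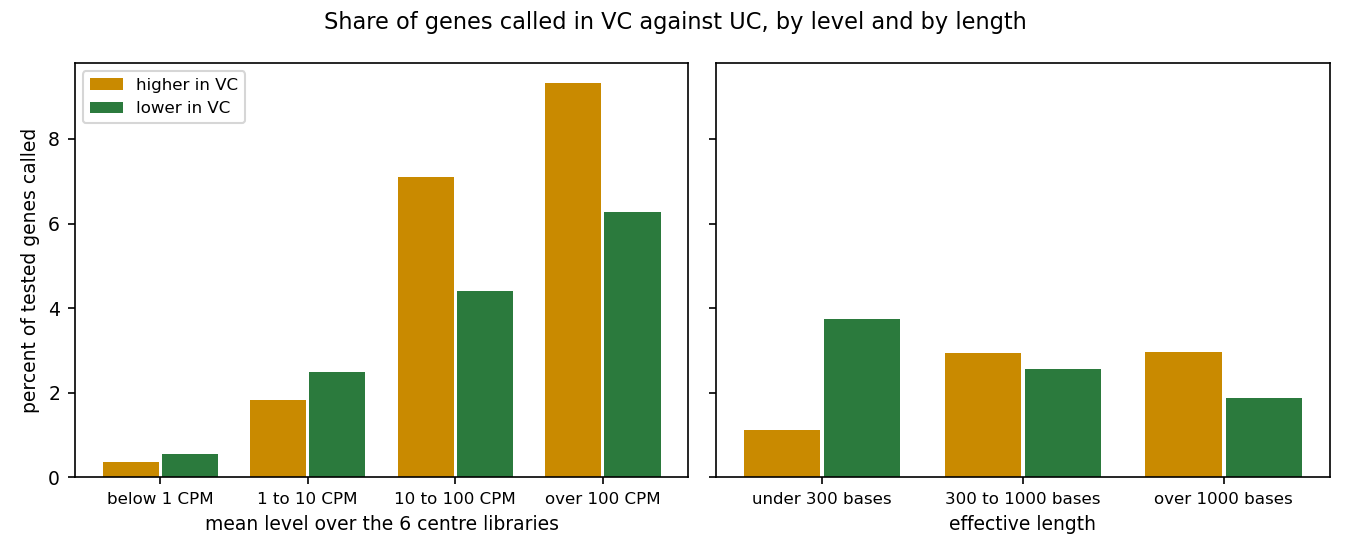
Percent of tested genes called higher (orange) or lower (green) in VC against UC, by mean level over the 6 centre libraries (left) and by effective length (right). Calls rise with level to 9.33% higher and 6.27% lower over 100 CPM, and lower calls exceed higher ones by most under 300 bases, at 3.75% against 1.12%. This last order turns when the length trend is removed, a step that takes out any such shift whatever its source.

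A total of 1621 called genes averaged 10 CPM or more over the centre libraries and had no overlap between the groups, 996 higher and 625 lower. The genes with the largest increases and decreases among them are named here. They are transcripts present in one group and nearly missing from the other.

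Cluster-20123.56334 was present in every VC library and was not counted in any unvariegated library. It had 79.1, 74.2 and 49.6 CPM in VC1, VC2 and VC3, against 0 CPM in each UC library. The 3350 counts over VC against 0 over UC put it at least 1140-fold higher in VC, taking a floor of 3 counts over the UC group. At the edge it had 60.3 and 22.8 CPM in VE1 and VE2 but 0 CPM in VE3, like all 3 UE libraries. Its call was narrow (adjusted p = 0.0483, edgeR). It was lost when any single VC or UC library was left out, with adjusted p of 0.131, 0.127 and 0.0617 without VC1, VC2 and VC3 and 0.103, 0.110 and 0.102 without UC1, UC2 and UC3 in the same edgeR test. It was also lost without VE2, UE1 or UE3 (adjusted p = 0.0767, 0.0526 and 0.0529, edgeR) and with no low-count filter, a replicate block or the length trend removed (adjusted p = 0.339, 0.073 and 0.0514, edgeR), while its fitted log2 fold change, which depends on the prior count, stayed at 13.16, 13.65 and 13.11 against 13.12. Over all alternatives the adjusted p ranged from 0.000707 to 0.339.

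Cluster-20123.24834 was also a transcript of variegated libraries, with a wide spread among them. It had 14.8, 112 and 209 CPM in VC1, VC2 and VC3, against 0.118 CPM in UC1 and 0 CPM in UC2 and UC3. VC1 was here the lowest VC library and VC3 the highest, the reverse of most genes called higher. The pooled counts were 6419 in VC and 2 in UC, a ratio of 3290 with a 95% counting interval of 910 to 27200 (adjusted p = 0.012, edgeR). At the edge it reached 3600, 151 and 360 CPM in VE1, VE2 and VE3, against 0 CPM in UE1 and UE2 and 0.0511 CPM in UE3. The call in the centre was lost without UC1 or UC2 (adjusted p = 0.0604 and 0.0528, edgeR), in a range of 5.98e-08 to 0.0604 over all alternatives. Counting intervals and floors cover counting error only.

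Cluster-20123.85164 was nearly missing from VC and from no other group. It had 0.137, 0.132 and 0.416 CPM in VC1, VC2 and VC3, against 45.9, 49.2 and 60.8 CPM in UC1, UC2 and UC3. With 13 counts over VC and 2777 over UC, the ratio of UC to VC was 209 (95% counting interval 122 to 392; adjusted p = 1.63e-06, edgeR). At the edge the groups overlapped, at 66, 81 and 94 CPM in VE1, VE2 and VE3 and 78.4, 67.4 and 61.5 CPM in UE1, UE2 and UE3. The difference between the zones itself passed, at -7.88 on the log2 scale (adjusted p = 6.51e-06, edgeR interaction).

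Cluster-20123.34662, the longest of the 4 with an effective length of 6041 bases, showed a like pattern. It had 1.85 CPM in VC1 and 0 CPM in VC2 and VC3, against 76.8, 82.1 and 72.7 CPM in UC1, UC2 and UC3. The 27 counts over VC all lay in VC1. The ratio of UC to VC was 146 (95% counting interval 100 to 221; adjusted p = 0.00636, edgeR). At the edge it had 91.6, 114 and 134 CPM in VE1, VE2 and VE3, against 79.4, 400 and 99.2 CPM in UE1, UE2 and UE3, so the groups overlapped. Its difference between zones did not pass (adjusted p = 0.123, edgeR interaction).

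**Figure D4:**
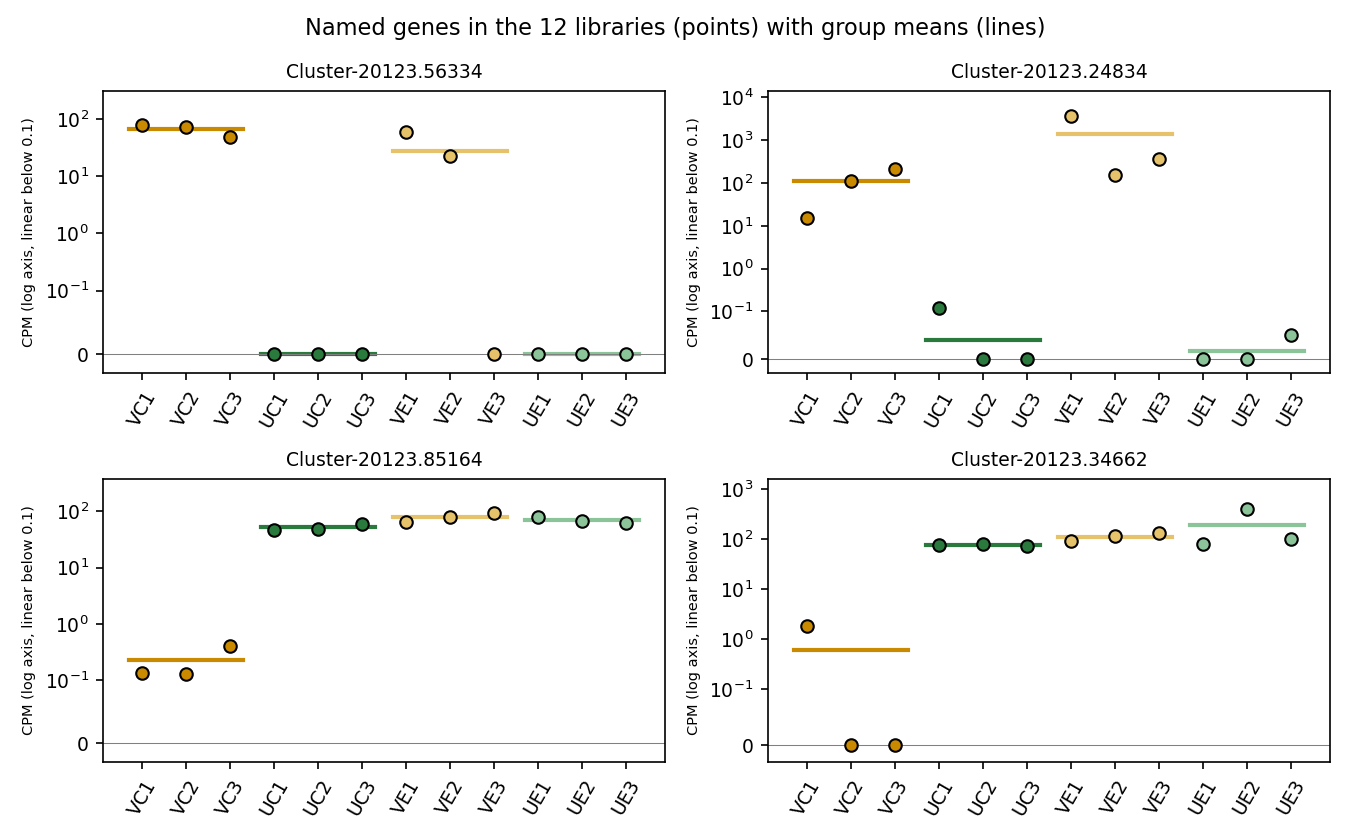
CPM of the 4 named genes (y axis, log scale with a linear part below 0.1) in each library (x axis), with lines at the group means. The upper pair is at or near 0 in all UC and UE libraries, and the lower pair is at or below 1.85 CPM in VC and between 45.9 and 400 CPM in the other groups.

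The 20 largest increases and the 20 largest decreases under the same rule differed in what they did at the edge. The increases, of 4.01 to 13.12 on the log2 scale, had median levels of 55.6 CPM in VC and 1.97 CPM in UC, and of 43.9 CPM in VE and 1.91 CPM in UE. All 20 were also higher in VE than in UE by sign, and 18 were called higher there, against 87.8% and 40.7% of all 1582 genes higher in VC. None of the 20 had an interaction call. With 19 among the 1582, a list of 20 would seldom hold any. Of all genes tested, 3.33% were called higher at the edge and 0.0962% had an interaction call. The like share by sign over all genes tested is not given here, and these shares are not matched by level. The decreases, of -7.67 to -3.09, had median levels of 2.83 CPM in VC and 48.9 CPM in UC, and of 29.0 CPM in VE and 74.1 CPM in UE. Of these, 16 had the same sign at the edge, 6 were called lower there and 6 had an interaction call. Of all 1437 genes lower in VC, 87.4% had the same sign, 31.0% were called lower there and 31 had an interaction call. Over all genes tested 1.94% were called lower at the edge. VC3 was the lowest VC library in 19 of the 20 increases and the highest in 15 of the 20 decreases. In all genes called higher and lower the values were 80.7% and 63.3%. The contrast between the lists was not tested.

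At the leaf edge 1970 genes were higher in VE than in UE (3.33% of genes tested) and 1150 were lower (1.94%), 5.27% together. Of the 1582 genes higher in the centre, 644 were also called higher at the edge, which is 40.7%, and 6 were called lower. Of the 1437 genes lower in the centre, 445 were also called lower at the edge, which is 31.0%, and 11 were called higher. Both comparisons come from a single fit and share each gene's estimate of spread, so genes of low spread tend to pass in both. The shares over all genes tested are also not matched by level. At the edge 1.29% of genes below 1 CPM were called, against 22.7% of those over 100 CPM. The median log2 fold change at the edge was 0.77 for the genes higher in the centre (quartiles 0.25 and 1.73) and -0.68 for those lower (quartiles -1.28 and -0.27), against -0.04 over all genes tested. The change was larger in the centre than at the edge in 1191 of the higher and 1215 of the lower genes. The genes were chosen in the centre, which by itself favours a larger value there.

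Sharing with the edge grew with the size of the change in both directions, and more steeply among the genes that were higher. Of those over 3 on the log2 scale in the centre, 126 of 222 were called higher at the edge (56.8%), against 51.8% of those between 1 and 3 and 20.9% of those below 1. Among genes that were lower the shares were 35.5%, 32.4% and 25.1% in the same order. The difference between the directions was not tested, and the base shares differ too. Of all genes tested, 3.33% were called higher at the edge and 1.94% lower. The counts of 644 and 445 moved with the libraries in the fit. The 644 ranged from 210 without VC2 to 1163 without VC3 and was also beyond a factor of 1.5 without VC1, UC1, UC2, UC3, VE1, VE2, UE1 or UE3 (277, 320, 260, 401, 361, 341, 305 and 288). The 445 ranged from 122 without VC2 to 689 without VC3 and was also beyond that factor without VC1, UC1, UC2, UC3, VE1, VE2, VE3, UE1 or UE3 (209, 234, 242, 234, 183, 169, 290, 191 and 209). DESeq2 gave 1528 in place of the 644 and 1017 in place of the 445, and limma on log2 FPKM gave 810 and 681 in place of the 445 with pseudocounts of 1 and 0.1.

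A test of the difference between the zones, the interaction of zone and phenotype, passed for 57 genes of all tested (0.0962%), and 50 of these were called in the centre. Of all genes tested, 0.0355% had a more positive and 0.0608% a more negative change in the centre than at the edge. Both tests hold the change in the centre, so this overlap is partly built in. Genes that pass both are also picked for a change that differs at the edge, so their medians describe the choice. The 31 among the lower genes changed by a median of -3.10 in the centre and 0.29 at the edge on the log2 scale. Their median levels were 1.29 CPM in VC and 16.1 CPM in UC, and 19.6 CPM in VE and 11.95 CPM in UE. In 21 of the 31 the edge comparison made no call, with medians of 0.766 CPM in VC and 16.1 CPM in UC, and of 15.5 CPM in VE and 14.4 CPM in UE. Taking genes without an edge call by itself favours like levels in VE and UE. The 19 among the higher genes had smaller changes, with a median of 1.27 in the centre and -0.58 at the edge, and median levels of 38.3 CPM in VC and 15.9 CPM in UC, and of 14.6 CPM in VE and 19.7 CPM in UE. The 31 became 14, 12, 10, 17, 10, 9, 14, 13 and 10 without VC2, UC1, UC2, UC3, VE1, VE2, VE3, UE1 and UE3, in this order, and 45 without UE2. The 19 became 0 without UC2 or VE2, 1 without VC2, UC1, UE1 or UE3, 3 without VE1, 7 without VE3, 8 without VC1 or VC3, and 7 with a replicate block. Other settings gave more: with no low-count filter 123 higher and 79 lower genes had an interaction call, and limma on log2 FPKM gave 56 and 33 higher genes with pseudocounts of 1 and 0.1, with 28 and 25 lower.

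**Figure D5:**
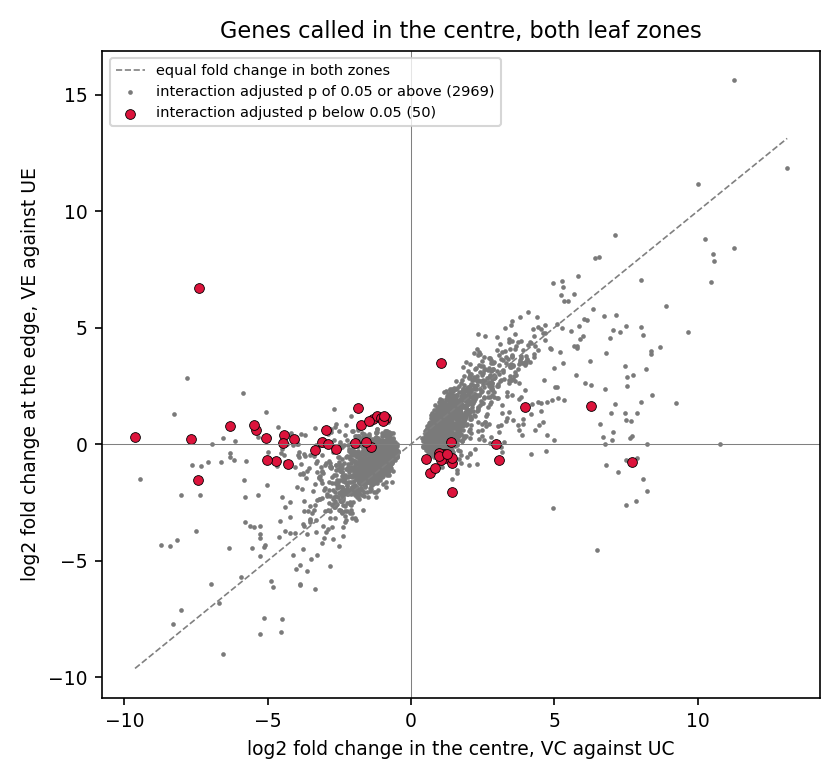
Log2 fold change at the edge (VE against UE, y axis) by log2 fold change in the centre (VC against UC, x axis) for the 3019 genes called in the centre; red points are the 50 with an interaction call and the dashed line marks equal changes. Most points lie in the quadrants of equal sign, and the red points at the left, the 31 lower genes, have a median of 0.29 at the edge and a lowest value of -1.56. Red points were picked by the difference between the plotted changes, which by itself favours a place away from the dashed line.

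Among the 100 genes most abundant over the centre libraries, with means of 676 to 19115 CPM, 15 were called, 3 higher and 12 lower. The share called, 15%, is close to the 15.6% of all genes over 100 CPM, against 5.10% of all genes tested. By direction it was 3% higher and 12% lower, where all genes over 100 CPM had 9.33% higher and 6.27% lower. At the edge the balance among the same 100 was the opposite, with 28 higher and 4 lower in VE, 32% called. All genes over 100 CPM had 230 higher and 60 lower there, 22.7% called. These differences between the 100 and the wider class were not tested. The 3 higher genes changed by 0.86 to 1.88 on the log2 scale and summed to 4253 CPM in VC and 1720 CPM in UC. The 12 lower genes changed by -1.34 to -0.64 and summed to 10089 CPM in VC and 19719 CPM in UC. The median log2 fold change of the 100 was 0.05, against -0.04 over all genes tested. The lists of the 100 most abundant genes in VC and in UC shared 79 genes, 79% of each. The 100 most abundant genes of each library held 23.3% ± 1.85 of its counts in VC and 24.7% ± 1.23 in UC (SD, n = 3 each). No difference was detected (exact permutation test, two-sided p = 0.4, adjusted p = 0.833 over 5 measures), with 0.1 the smallest p possible.

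Some genes were seen in one centre group only. With at least 10 counts in each VC library and at most 3 over UC there were 123 genes, of which 95 had no count in UC. Of these 123, 117 were tested and 55 were called. With at least 10 counts in each UC library and at most 3 over VC there were 78 genes, of which 36 had no count in VC. Of these 78, 73 were tested and 36 were called. Over all genes tested 5.10% were called, but the rule picks genes that differ in these same libraries, which by itself raises the share called. Most genes of both sets were also counted at the edge of the other phenotype. Of the 123 genes, 110 had over 3 counts in VE and 88 had over 3 counts in UE, with medians of 32 counts over VE and 13 over UE. Of the 78 genes, 53 had over 3 counts in VE and 72 had over 3 counts in UE, with medians of 11.5 counts over VE and 37 over UE. The genes of the first set summed to 398, 488 and 521 CPM in VC1, VC2 and VC3, and to 4260, 333 and 528 CPM in VE1, VE2 and VE3, with 45.8 to 71.8 CPM in the UE libraries. Cluster-20123.24834 made up 3600 of the 4260 CPM in VE1.

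Called genes often had called neighbours in the numbering of the assembly. Among 2399 called genes whose next lower or next higher number was also tested, 21.8% had at least 1 called neighbour, against 7.88% of all 43206 genes with a tested neighbour. Both members were called in 284 adjacent pairs, in the same direction in 256 and in opposite directions in 28. The genes compared were not matched by level, and abundant genes were called more often. How often all adjacent pairs change in the same direction is not given here. Whether neighbours share sequence was not tested, as no sequences were used here. RSEM divides reads that match several clusters by estimation, so any neighbours that share sequence would be uncertain as separate units.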

How the data were processed

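Polyadenylated RNA was sequenced, and no step that marks strand is described in the labels' protocols. For 185746 transcript clusters in 12 libraries the authors deposited RSEM expected counts and, in a second table, FPKM values, which divide by effective length and library total. The submitters' processing notes name CASAVA 1.8, Bowtie2 and RSEM, while the assembler and reference assembly are not given in the sources used here. Of the expected counts, 21.3% were not whole, and they were rounded before testing. filterByExpr (minimum count 10, minimum total 15) kept 59225 genes with 98.9% of the counts. The quasi-likelihood test of edgeR 4.0.16, run under R 4.3.3, used TMM scaling, robust glmQLFit and glmQLFTest, and 8 residual degrees of freedom. It was also run on simulated counts in which no library stood apart from its group. That run does not bear on the dependence of the calls on single libraries. Named genes were the 2 highest and 2 lowest log2 fold changes among called genes averaging 10 CPM or more over the centre libraries with groups that did not overlap. A replicate block, DESeq2 1.42.0, limma 3.58.1 with a trend on log2 values of the FPKM as deposited (pseudocount 1 or 0.1), other scalings, other filters, gene length and left-out libraries were the alternatives. The comparison and its classes were chosen with earlier results of these data known. Figures used Python 3.11.15 and matplotlib 3.10.9.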

Additional observations from a re-analysis of the deposited data

Results flagged for a closer look

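The change of Cluster-20123.85164 differed between leaf zones, by -7.88 on the log2 scale (adjusted p = 6.51e-06 in edgeR's interaction test): it averaged 0.228 ± 0.162 CPM in VC and 52.0 ± 7.85 CPM in UC, and 80.3 ± 14 CPM in VE and 69.1 ± 8.58 CPM in UE (SD, n = 3 each). In the same fit 50 of the 3019 centre calls also passed the interaction test, 31 of them lower and 19 higher in VC. Both tests hold the centre change, so this overlap is partly built in.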

How the results depend on the processing

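The 3019 calls moved beyond a factor of 1.5 with DESeq2 (6466, with 3632 higher and 2834 lower, 3018 of them shared) and with only the 6 centre libraries (818, with 439 higher and 379 lower). With a log2 fold change of at least 1 required, 979 were higher and 1087 lower, so that 47.4% of the calls were higher. RLE, library totals, both limma fits, the replicate block, both other filters and both length settings gave 2386 to 3946 calls. With no low-count filter 65.7% of the calls were higher, against 52.4%, and without UC2 45.9% were. With a library left out, the calls ranged from 700 to 4609, the higher from 363 to 2589 and the lower from 337 to 2020. The share of calls with the same sign at the edge was 87.6% in the main fit and ranged from 83.8% to 90.7% over all alternatives. The like share over all genes tested is not given here. Cluster-20123.85164 and Cluster-20123.34662 passed in all 24 alternatives, with adjusted p up to 0.000797 and 0.0358.

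Same-numbered VC and UC libraries did not deviate together (correlations across genes of 0.0854, -0.0306 and -0.0125), so the numbers were not taken as pairs; 1 of the 3 VC libraries correlated best with its own number. The replicate block gave 2890 calls, 1476 higher and 1414 lower, with 2378 shared.

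Among genes passing the filter, the differences of VC minus UC in detected genes and in the percent of counts in the largest assembly group were 947 and -0.0498, opposite in sign to those over all genes (-1.67 and 0.141). Without a library the difference in total count ranged from -1466900 to 2116600, in detected genes from -5357 to 3594.5. Genes seen in UC only were 36 when 0 counts over VC were required. With at least 30 counts in every library, 17 were seen in VC only and 10 in UC only. Without a library these counts ranged from 211 to 349 and from 141 to 362, since the rule then loosens. With 3 libraries a group, genes under 1 CPM were seldom called, and no difference in them was detectable at this depth in most cases.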
